A study of Mus musculus with 4 samples.

Results

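ATF4 is a transcription factor of the integrated stress response, and the genes described here are Atf4 itself and 9 genes that it is known to drive when amino acids run short: Ddit3, Trib3, Chac1, Asns, Psat1, Phgdh, Slc3a2, Slc7a11 and Sesn2. They were found on the array as every probe set annotated to exactly 1 gene symbol that is one of these 10, which gave 19 of 22626 probe sets. The array measured 4 subcutaneous tumors that iBMK cells, an immortalized epithelial line from baby mouse kidney, formed in nude (NCR Nu/Nu) mice. All 4 tumors had the genotype ATG5-/- and carried Bcl-2, so the controls lacked the same autophagy gene and held the same survival protein. EGFP, a green fluorescent protein, was expressed in 2 tumors, and p62 (the autophagy receptor encoded by Sqstm1) fused to EGFP in the other 2, from cell lines that the series describes as isogenic. The labels give no drug or other treatment. They leave unsaid whether each tumor had its own mouse or culture and whether a line was 1 clone, so p-values measure only the spread between these tumors. RNA of a whole tumor also holds RNA of the host's cells, and fewer cells of a type cannot be told apart from less RNA per cell.

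In a cell short of amino acids, the kinase GCN2 phosphorylates the translation factor eIF2, and other stresses reach eIF2 through the kinases PERK, PKR and HRI. Phosphorylated eIF2 slows general translation but favours translation of the Atf4 mRNA, so ATF4 protein can change without its mRNA. ATF4 then pairs with C/EBP proteins on amino acid response elements and raises genes that make, import and conserve amino acids. Autophagy is itself a source of amino acids, and the comparison asks which of these transcripts differ when p62-EGFP is expressed in tumors that cannot run autophagy.

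Promoters bear on the group because ATF4 is known to act through a short element in them. RefSeq promoters of build GRCm38.p6, each with 250 bases before and 50 bases from the gene's start, were present for all 10 genes and were searched on both strands for TGATGNAA, a core of that element. The 4 genes with a match are shown 5′ to 3′ on the gene's strand, with the matched bases in capitals (a match on the opposite strand reads TTNCATCA).
Asns (chr6:7693210-7693262, minus strand, upstream of the start): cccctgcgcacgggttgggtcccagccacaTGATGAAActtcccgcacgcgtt
Chac1 (chr2:119351019-119351086, plus strand, upstream of the start): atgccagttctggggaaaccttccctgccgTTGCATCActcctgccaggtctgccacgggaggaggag
Slc7a11 (chr3:50443623-50443709, minus strand, upstream of the start): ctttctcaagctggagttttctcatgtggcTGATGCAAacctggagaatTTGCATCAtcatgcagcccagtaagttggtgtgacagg
Trib3 (chr2:152344029-152344057, minus strand, just after the start): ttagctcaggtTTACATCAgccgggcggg
Slc7a11 held 2 matches that do not overlap, and the others 1 each. Of 27025 genes with a promoter in the table, 4.51% held a match. The windows of the other 6 genes, Atf4, Ddit3, Psat1, Phgdh, Slc3a2 and Sesn2, did not hold these letters. Sequence outside the windows and other forms of the element were not searched, so these genes may still hold one. The matches are a description of the sequence, and no binding was measured.

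The deposited values are MAS5 signals, 1 number per probe set and array, already scaled so that the trimmed mean was 150.04 on each array. Of the 19 probe sets, 14 of 7 genes were bright enough to be tested (mean at or above the 40th percentile, a signal of about 32.7). The 5 others were both probe sets of Trib3, those of Chac1 and Slc7a11, and 1 of 3 for Atf4. Differences are given on the scale of log2(signal + 16), p62-EGFP minus EGFP, with limma standard errors and p-values adjusted over all 13576 tested probe sets by Benjamini-Hochberg. Signals are given below in the order tumor 1, tumor 2, first with EGFP alone and then with p62-EGFP. In the check of the labels, Sqstm1 read 976 and 1156 with EGFP alone and 1433 and 1688 with p62-EGFP. Its log2 difference was 0.54 and did not pass either (limma adjusted p = 0.235). Atg5 read 119 and 103 against 91.3 and 93.9, and it is not known whether its probes lie in the deleted part. Of the 5 epithelial markers bright enough to be tested, Krt19 read 93.6 and 156 against 333 and 341 (log2 difference 1.36, limma adjusted p = 0.188) and Epcam 351 and 109 against 361 and 660, both higher in each p62-EGFP tumor. Krt18 read 730 and 254 against 545 and 627, Krt8 137 and 80.5 against 101 and 239, and Cdh1 134 and 86.8 against 89.7 and 221, all with overlap. The part of these epithelial transcripts in the differences described here was not tested. The kidney markers Pax8, Cdh16 and Lhx1 were below the filter. Of all 11 measured epithelial markers 4 were higher without overlap and 0 lower, beside 26.4% and 22% of all tested genes. That count includes Cldn7 and Lhx1, both too dim to be tested. EGFP tumor 2 stood apart by its leukocyte transcripts: the summed signal of 13 macrophage markers was 11161 there and 1347 to 2500 in the other tumors. p62-EGFP tumor 1 stood apart by its skeletal muscle transcripts, with a summed signal of 4593 over 11 markers against 70.1 to 782.

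No probe set of the ATF4 group passed the test, and its genes did not move as one. Atf4, Slc3a2 and Sesn2 read lower in each p62-EGFP tumor than in any EGFP tumor, whereas Asns and Psat1 had slightly higher ones, and Ddit3 and 3 of the 4 Phgdh probe sets overlapped. By limma, 0 of 14 probe sets had an adjusted p below 0.05, beside 0.0884% of all tested probe sets, and the adjusted p-values ran from 0.219 to 0.924. At an unadjusted p below 0.05 there were 2 of 14, beside 14.5% of all tested probe sets, which is about the same share. The 2 groups of arrays did not overlap for 10 of the 14, 5 with p62-EGFP higher and 5 lower, beside 26.7% higher and 22.2% lower among all tested probe sets. One of the 5 lower probe sets, the dimmer of Sesn2, was tested only because of its EGFP tumors, since its p62-EGFP mean lay below the filter, and without it 4 of 13 were lower. Probe sets of a gene share a transcript, and counted by the brightest probe set of each gene 2 of 7 were higher and 3 of 7 lower, beside 26.4% and 22% of 7847 genes. The median log2 difference of the 7 genes was -0.13, against 0.01 over all tested genes, and the median size of a difference was 0.20 against 0.22. Over the 14 probe sets, 4 of them of Phgdh, the median had the opposite sign, 0.05 against 0.02 over all tested probe sets, so it depends on how probe sets of a gene are counted. With 1 tumor left out in turn the median of the 7 genes ran from -0.23 (without EGFP tumor 1) to -0.01 (without EGFP tumor 2). The p62-EGFP tumors were closer to each other than the EGFP tumors were for 12 of the 14 probe sets, all but the tested pair of Atf4, beside 68.5% of all tested probe sets.

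**Figure D1:**
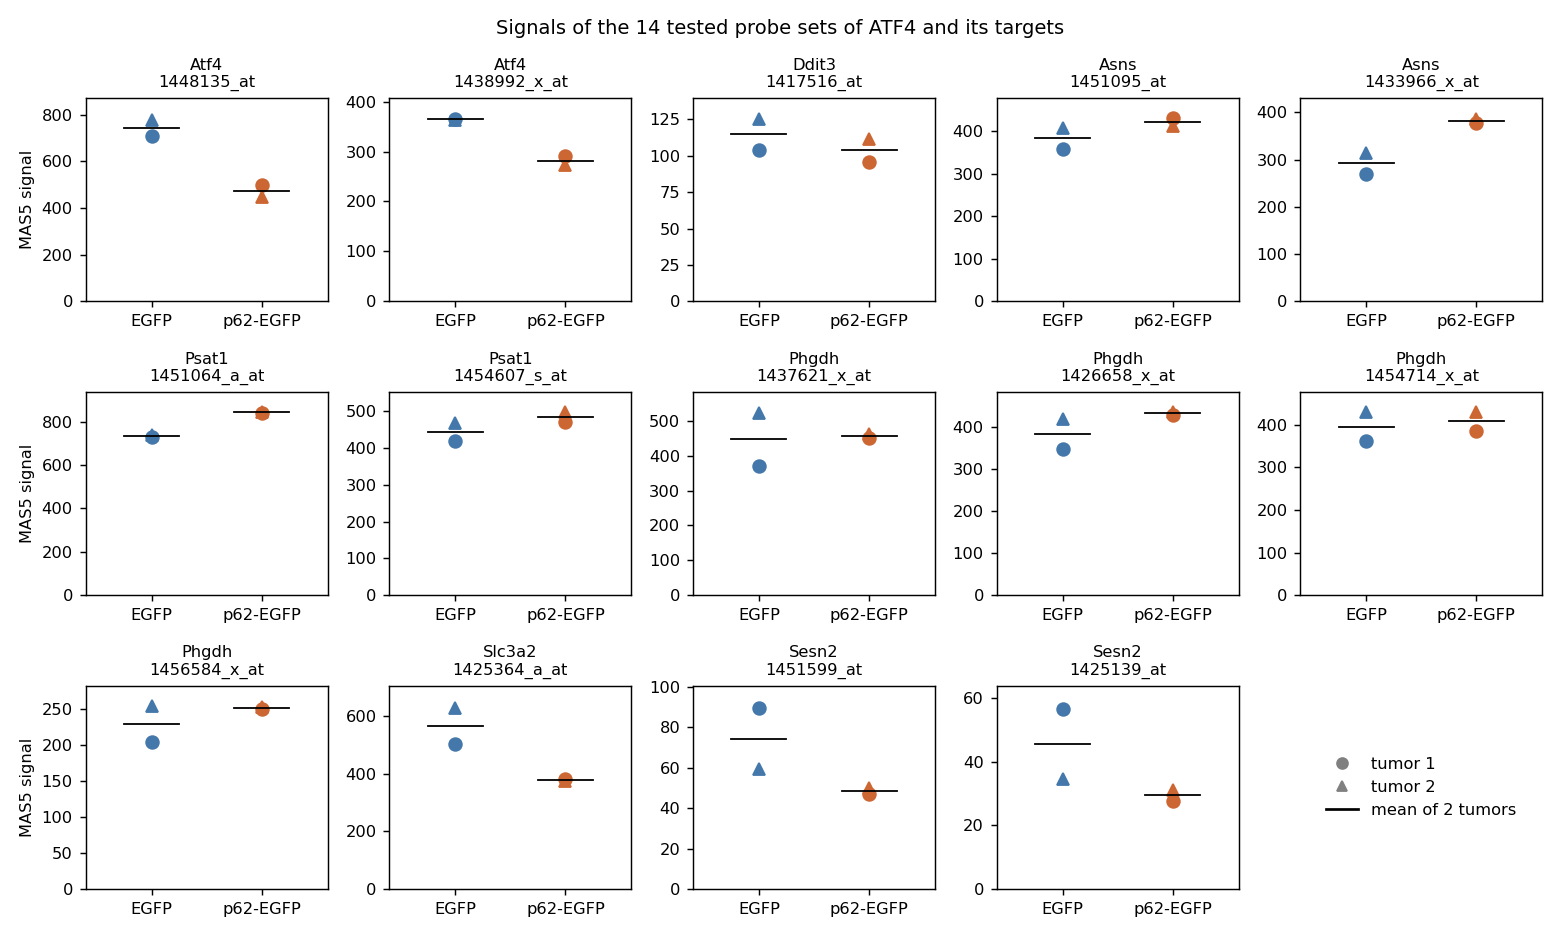
MAS5 signal (vertical axes, linear, from 0) of each tested probe set in the 2 EGFP and 2 p62-EGFP tumors; circles are tumor 1, triangles tumor 2, and black lines the mean of 2 tumors. Atf4, Slc3a2 and Sesn2 lie lower in both p62-EGFP tumors, Asns and Psat1 a little higher, and the p62-EGFP tumors lie close together in most panels.

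Atf4, after which the group is named, had the smallest p of all members in the fit of all 4 tumors. Its brightest probe set (1448135_at) read 707 and 777 with EGFP alone and 500 and 448 with p62-EGFP. Neither p62-EGFP tumor reached the level of an EGFP tumor, and the gap between the groups exceeded the gap within either. The means were 742 ± 49.1 and 474 ± 36.6 (SD, n = 2 each), a ratio of 0.639. The log2 difference was -0.63 (SE 0.14, 95% interval -0.98 to -0.27) and did not pass (limma adjusted p = 0.219, unadjusted p = 0.00557). A second probe set (1438992_x_at) read 366 and 363 against 290 and 273, again with no overlap, and gave a smaller log2 difference of -0.36 (SE 0.15, limma adjusted p = 0.350). The third (1439258_at) read 0.7 and 1.1 in both groups, near the bottom of the scale, and was not tested.

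The Atf4 difference had to keep its direction against each EGFP tumor alone, because the groups did not overlap, and only its size could vary. p62-EGFP tumors 1 and 2 differed from EGFP tumor 1 by -0.49 and -0.64 on the log2 scale, and from EGFP tumor 2 by -0.62 and -0.77. For fits that leave 1 tumor in a group only the sizes are given. Without EGFP tumor 1 the difference was -0.70 and without EGFP tumor 2 it was -0.56. Both of those fits take the spread from the closely matched p62-EGFP pair alone and assume that the lone EGFP tumor varies like it, and they called 20.9% and 9.53% of all tested probe sets. Leaving out p62-EGFP tumor 1 gave -0.71, and leaving out p62-EGFP tumor 2 gave -0.55. These fits called 0 probe sets of any gene. The 309 tested genes of chromosome 15, where Atf4 lies, had a median difference of -0.20, and Atf4 differed from that median by -0.43.

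Ddit3 encodes CHOP, a transcription factor that ATF4 induces and that promotes cell death under prolonged stress. Its probe set read 104 and 126 with EGFP alone and 95.9 and 112 with p62-EGFP. The groups overlapped, since p62-EGFP tumor 2 lay above EGFP tumor 1, and in both groups tumor 2 had the higher signal. The log2 difference was -0.13 (SE 0.18, 95% interval -0.59 to 0.34, limma adjusted p = 0.773), so the interval allows changes of either sign.

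Trib3 encodes a pseudokinase that dampens ATF4 activity, and Chac1 an enzyme that degrades glutathione; both are among the genes known to respond most strongly to ATF4. Neither was bright enough to be tested. Trib3 read 28.2 and 17.4 against 18.2 and 16.5 with one probe set (1456225_x_at), and 20.1 and 17.5 against 17.1 and 19.0 with the other (1426065_a_at). Chac1 read 13 and 20.4 against 16.9 and 18.2. The groups overlapped for all 3 of these probe sets, and no tumor of either group had a signal above 28.2.

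Asns encodes asparagine synthetase, the textbook amino acid response gene. Its brightest probe set (1451095_at) read 359 and 408 with EGFP alone and 431 and 412 with p62-EGFP. The groups did not overlap, but p62-EGFP tumor 2 exceeded EGFP tumor 2 by only 0.01 on the log2 scale. The log2 difference was 0.13 (SE 0.15, limma adjusted p = 0.697). The other probe set (1433966_x_at) read 270 and 314 against 376 and 385 and gave 0.37 (SE 0.16, 95% interval -0.03 to 0.76, limma adjusted p = 0.357). The difference was therefore in 1 direction with both probe sets and unequal in size. The larger one came from an x_at probe set, a kind whose probes Affymetrix marks as able to bind other transcripts. The second Atf4 probe set is of that kind too.

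Psat1 and Phgdh encode enzymes of serine synthesis from a glycolytic intermediate: Phgdh catalyses the first step and Psat1 the next. Psat1 read 727 and 736 with EGFP alone and 838 and 847 with p62-EGFP on its brightest probe set (1451064_a_at). The tumors of each group were nearly equal, and each p62-EGFP tumor exceeded each EGFP tumor, by 0.18 to 0.22 on the log2 scale in the 4 pairings. The log2 difference was 0.20 (SE 0.12, 95% interval -0.09 to 0.49, limma adjusted p = 0.468). The second Psat1 probe set (1454607_s_at) read 419 and 467 against 470 and 499, with a log2 difference of 0.13 (SE 0.14, limma adjusted p = 0.704).

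Phgdh was read by 4 probe sets, all of the x_at kind, whose probes Affymetrix marks as able to bind other transcripts. The brightest (1437621_x_at) read 371 and 523 with EGFP alone and 451 and 461 with p62-EGFP, so both p62-EGFP tumors lay between the EGFP tumors. Another (1426658_x_at) read 349 and 419 against 431 and 437, without overlap. The remaining pair overlapped, at 362 and 429 against 387 and 431 (1454714_x_at) and at 205 and 255 against 251 and 253 (1456584_x_at). The 4 log2 differences were 0.05, 0.17, 0.05 and 0.13, with limma adjusted p-values between 0.630 and 0.924. EGFP tumor 1 was the lowest of the 4 tumors with every Phgdh probe set. Without it 3 of the 4 differences turned negative, to -0.19, -0.07 and -0.02, and without p62-EGFP tumor 2 the difference of 1454714_x_at was -0.03. A further 2 probe sets carry Phgdh together with a predicted gene and were not used.

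Slc3a2 encodes CD98hc, the heavy chain that carries several amino acid exchangers to the cell surface, and Slc7a11 encodes xCT, the light chain that pairs with it to import cystine. Slc3a2 read 504 and 630 with EGFP alone and 384 and 377 with p62-EGFP. The p62-EGFP tumors lay below the range of the EGFP tumors and were close to each other, whereas the EGFP tumors differed by 0.31 on the log2 scale. The means were 567 ± 89.3 and 380 ± 5.02 (SD, n = 2 each), a ratio of 0.670. The log2 difference was -0.55 (SE 0.17, 95% interval -0.97 to -0.13) and did not pass (limma adjusted p = 0.267, unadjusted p = 0.0190). Without EGFP tumor 2, the tumor with the high leukocyte transcripts, the difference was -0.39, and without EGFP tumor 1 it was -0.71. It was -0.56 and -0.54 when p62-EGFP tumor 1 or 2 was left out. Each of these fits leaves 1 tumor in a group, so only the sizes are given. Slc7a11 read 1.6 and 14.8 against 8.5 and 10.1, below the filter in every tumor, and was not tested.

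Sesn2 encodes sestrin 2, a leucine sensor that restrains the growth kinase mTORC1. Its brighter probe set (1451599_at) read 89.4 and 59.5 with EGFP alone and 46.9 and 50.0 with p62-EGFP, and the other (1425139_at) 56.8 and 34.7 against 27.8 and 31.3. EGFP tumor 1 was the highest tumor with both, and neither probe set had a p62-EGFP tumor within the EGFP range. The log2 differences were -0.47 (SE 0.23, limma adjusted p = 0.404) and -0.42 (SE 0.25, limma adjusted p = 0.481). The second of these had to read lower once tested, because both of its p62-EGFP signals lay below the filter of 32.7, so it does not add to the first. For the brighter probe set the difference was -0.71 without EGFP tumor 2 and -0.23 without EGFP tumor 1. The size of this difference thus depended on EGFP tumor 1. It was -0.43 and -0.50 when p62-EGFP tumor 1 or 2 was left out. Here too each fit leaves 1 tumor in a group, so only the sizes are given.

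**Figure D2:**
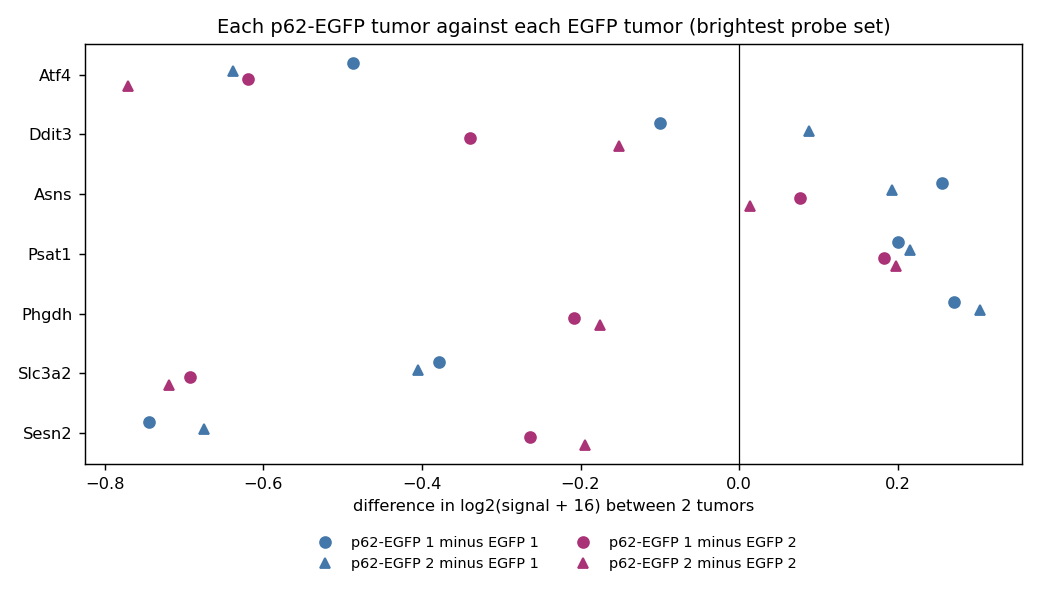
Difference in log2(signal + 16) between each p62-EGFP tumor and each EGFP tumor (horizontal axis) for the brightest probe set of the 7 tested genes; colours mark the EGFP tumor and shapes the p62-EGFP tumor. All 4 pairings are negative for Atf4, Slc3a2 and Sesn2 and positive for Asns and Psat1, and for Phgdh the sign follows the EGFP tumor used.

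Transcripts that mark mast cells and endothelium mostly read lower in the p62-EGFP tumors. No marker of these 2 lists passed the test, with a lowest limma adjusted p of 0.0842 for mast cell and 0.184 for endothelial markers. The summed signal of 8 mast cell markers was 732 and 617 with EGFP alone and 213 and 129 with p62-EGFP, and that of 10 endothelial markers 462 and 663 against 233 and 301. Both sums were lower in both p62-EGFP tumors, as were Atf4, Slc3a2 and Sesn2, and their part in those differences was not tested. Of the measured markers, 7 of 8 mast cell and 8 of 10 endothelial ones were lower without overlap, beside 22% of all tested genes. These counts include markers too dim to be tested. Among the tested markers, 4 of 5 mast cell and 3 of 7 endothelial ones had a p62-EGFP mean below the filter. Those were tested only because of their EGFP tumors. Kit, the stem cell factor receptor of mast cells, was the exception in its list, at 55.6 and 74.3 against 97.3 and 73.3. Tek, an endothelial receptor, read 25.1 and 39.2 against 32.2 and 36.4, and Vwf overlapped too. Tpsab1 and Esam had the highest mean over the 4 tumors in these lists. Tpsab1, a mast cell tryptase, read 301 and 160 against 32.1 and 20.4, and Esam, an endothelial adhesion molecule, 85.3 and 108 against 45.5 and 55.3. No marker of either list was at 0 in any tumor, but some were near the bottom of the scale. Vwf, for example, read 0.2 and 22.3 against 0.7 and 3.2. The macrophage sum was high in EGFP tumor 2 alone, and its part in the member differences was not tested.

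**Figure D3:**
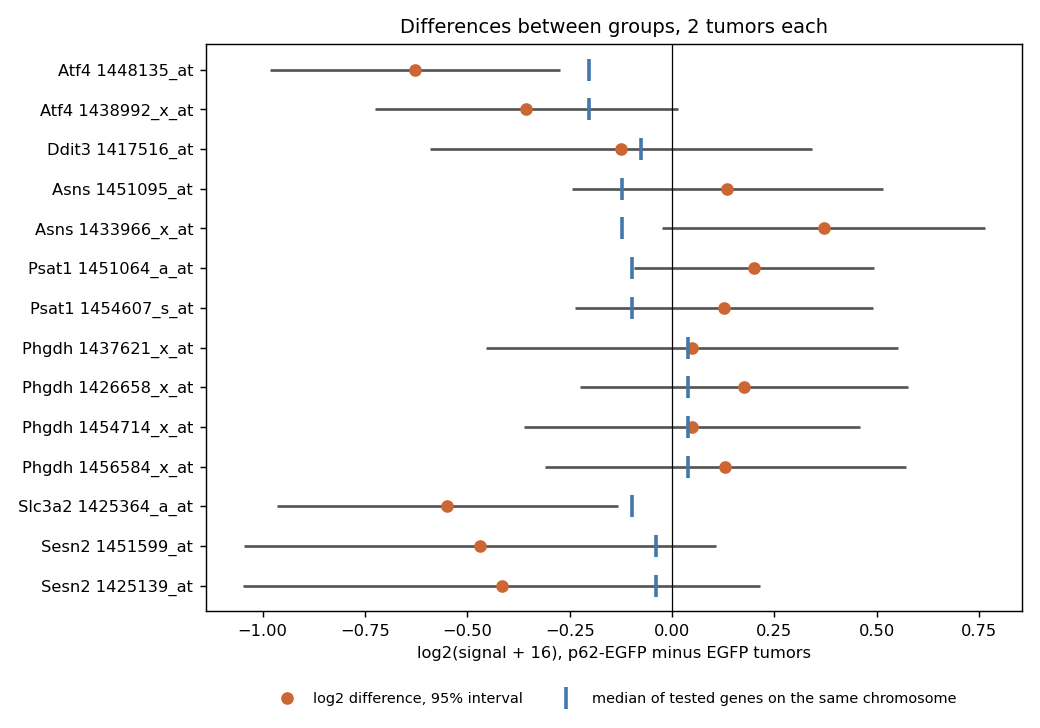
Log2 difference of the 14 tested probe sets, p62-EGFP minus EGFP tumors (horizontal axis), with 95% intervals from the limma fit (2 tumors per group); blue ticks are the median difference of the tested genes on the same chromosome. The intervals of 1 Atf4 probe set and of Slc3a2 lie below 0 before adjustment, and those of the other 12 cross 0.

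Chromosome medians ran from -0.20 (chromosome 15, Atf4) to 0.11 (chromosome 2, Trib3 and Chac1) for the chromosomes that hold the 10 genes. Relative to its chromosome's median, Slc3a2 differed by -0.45 and Psat1 by 0.30, although both lie on chromosome 19, whose median was -0.10. Sesn2 differed by -0.43 and Asns by 0.26 relative to chromosomes 4 and 6.

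The pattern of Atf4 over the 4 tumors was compared with that of every other tested gene by the root mean square difference of centred log2 values. The nearest of 7840 other genes were Abi3bp, Gng12, Snx10, Rbms1 and Lrrk2, at 0.03 to 0.04. Among the members Slc3a2 was the nearest to Atf4, at 0.09, which ranked 58 of 7846 genes. Asns ranked 3908 and Psat1 4633. For Asns the nearest genes were Tox4, Lap3, 1810058I24Rik, Gpt2 and Glyr1, at 0.01 to 0.02, and Psat1 was the nearest member, at 0.07 and rank 309. These are descriptions over 4 tumors, and a small difference mainly says that 2 genes share the sizes of their few differences.

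The wider pathway was described with 8 lists that hold 108 measured genes besides the members, of which 92 were tested. By limma 0 of the 92 had an adjusted p below 0.05, beside 0.051% of all tested genes, and the lowest was 0.170. At an unadjusted p below 0.05 there were 14 of 92, 6 higher and 8 lower, beside 8.5% higher and 6.27% lower among all tested genes. The groups did not overlap for 23 higher and 23 lower of the 92 genes, beside 26.4% higher and 22% lower among all tested genes, and those same shares are the background for the count given with each list. The median log2 difference was -0.04. Nupr1 and Slc7a7 were tested only because of their EGFP tumors. Read against those shares, the pathway's genes differed about as often as tested genes in general.

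The list medians depended on single tumors. Amino acid synthesis was 0.13 in all and -0.03 without EGFP tumor 1. The inputs were 0.14 in all and 0.07 without EGFP tumor 2. The synthetases were -0.04 in all, 0.01 without p62-EGFP tumor 1, and -0.10 without EGFP tumor 2 or p62-EGFP tumor 2. Other targets were 0.06 in all, 0.17 and -0.07 without EGFP tumors 1 and 2, and -0.02 and 0.01 when p62-EGFP tumor 1 or 2 was left out. Leucine sensing was -0.08 in all, 0.01 without EGFP tumor 1, -0.15 without EGFP tumor 2 and -0.01 without p62-EGFP tumor 1. Each of these 5 medians thus moved by over 1.5 times, or changed sign, with at least 1 tumor left out.

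Inputs to the response were measured by 13 genes, with a median log2 difference of 0.14, 5 of them higher and 2 lower without overlap. Eif2s3x, a subunit of eIF2, read 559 and 706 with EGFP alone and 902 and 1087 with p62-EGFP (log2 difference 0.64, limma adjusted p = 0.242); it has a close copy on the Y chromosome, and its x_at probe set may bind both. Eif2b1 and Eif2b4, subunits of the exchange factor that phosphorylated eIF2 inhibits, read 237 and 279 against 389 and 344, and 296 and 258 against 382 and 381. Eif2ak2, the interferon-induced eIF2 kinase PKR, read 160 and 222 against 110 and 127 (log2 difference -0.61, limma adjusted p = 0.309).

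The list of transcription factors that pair with ATF4 or act on its targets had a median of -0.50 over 11 tested genes, with 0 higher and 3 lower without overlap (2 of 10 lower without Nupr1). The median was -0.29 without EGFP tumor 2 and -0.28 without p62-EGFP tumor 1. It was -0.30 with a pseudocount of 64 and -0.28 over the 6 genes above the 60th percentile. Nfe2l2, which encodes NRF2, read 357 and 336 against 230 and 244 (log2 difference -0.52, limma adjusted p = 0.257). Nupr1, a stress-induced nuclear protein, read 45.0 and 60.2 against 32.4 and 27.1, and Jdp2, a bZIP repressor, 56.8 and 81.1 against 43.8 and 43.3. Atf3 read 540 and 229 against 203 and 230, with EGFP tumor 1 high and the other 3 tumors alike.

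Serine and one-carbon enzymes, the steps that follow Phgdh and Psat1, went different ways. Their median was 0.33 over 7 tested genes, 3 higher and 1 lower without overlap, and 0.20 and 0.21 without EGFP tumor 2 and p62-EGFP tumor 2. It was 0.18 with a pseudocount of 64. Shmt1, the cytosolic enzyme that turns serine into glycine, read 230 and 236 with EGFP alone and 463 and 492 with p62-EGFP. It had the smallest p of the whole pathway, with a log2 difference of 0.98 (SE 0.15, limma adjusted p = 0.170, unadjusted p = 8.39e-04). Mthfd2, a mitochondrial folate enzyme known as an ATF4 target, read 259 and 286 against 169 and 143 (log2 difference -0.75, SE 0.17, limma adjusted p = 0.219). The mitochondrial Shmt2 read 319 and 240 against 338 and 400, and Mthfd1, the cytosolic trifunctional folate enzyme, 144 and 155 against 167 and 252. None of these passed.

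Other enzymes of amino acid synthesis had a median of 0.13 over 8 tested genes, 3 higher and 3 lower without overlap. Aldh18a1, the first enzyme of proline synthesis from glutamate, read 347 and 377 against 232 and 256 (log2 difference -0.54, limma adjusted p = 0.256). Glul, glutamine synthetase, read 668 and 826 against 901 and 1106 (log2 difference 0.42, limma adjusted p = 0.350). Gpt, an alanine aminotransferase, read 64.2 and 50.4 against 38.1 and 47.3, and Pck2, the mitochondrial phosphoenolpyruvate carboxykinase, 166 and 118 against 159 and 179, with overlap.

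Amino acid transporters had a median of -0.28 over 11 tested genes, 2 higher and 4 lower without overlap. The median was -0.05 without EGFP tumor 1, -0.44 without EGFP tumor 2 and -0.17 without p62-EGFP tumor 1. With no filter it was -0.14 over 17 genes. Slc7a5, the light chain LAT1 that pairs with Slc3a2 to import leucine, read 119 and 138 with EGFP alone and 69.2 and 83.0 with p62-EGFP (log2 difference -0.65, SE 0.18, limma adjusted p = 0.251). Each partner thus read lower in the p62-EGFP tumors, and neither passed. Slc6a6, the taurine transporter, read 208 and 302 against 109 and 122 (log2 difference -1.03, limma adjusted p = 0.211). Slc1a5, a glutamine carrier, read 288 and 222 against 211 and 200, and Slc7a6, another light chain that pairs with Slc3a2, 113 and 121 against 158 and 135, higher in both p62-EGFP tumors.

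Aminoacyl-tRNA synthetases, which charge tRNAs with amino acids and include several known ATF4 targets, had a median of -0.04 over 18 tested genes, 4 higher and 4 lower without overlap. Aars read 345 and 425 against 258 and 255 (log2 difference -0.55, limma adjusted p = 0.271) and Tars 325 and 443 against 282 and 310. Rars read 379 and 445 against 512 and 530, and Qars 418 and 501 against 570 and 529. Among other reported ATF4 targets the median was 0.06 over 15 tested genes, 4 higher and 4 lower. Ddit4, which encodes the mTORC1 inhibitor REDD1, read 269 and 282 against 327 and 526, and Ndrg1, a gene also induced by hypoxia, 465 and 417 against 534 and 674. Klhl24 read 82.1 and 69.3 against 114 and 95.8. Eif4ebp1, which encodes the translation inhibitor 4E-BP1, read 338 and 342 against 280 and 272 (log2 difference -0.29, limma adjusted p = 0.421).

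The leucine sensing list holds the other sestrins, the GATOR complexes through which Sesn2 acts and mTORC1. It had a median of -0.08 over 10 tested genes, 2 higher and 2 lower without overlap. At an unadjusted limma p below 0.05 there were 0 of 10, beside 8.5% higher and 6.27% lower among all tested genes. With 10 genes that count says little. Sec13 of GATOR2 read 679 and 699 against 626 and 514, Mios of the same complex 168 and 151 against 184 and 180, and Nprl2 of GATOR1 132 and 120 against 162 and 137. Mtor, the kinase itself, read 227 and 199 against 155 and 202, with overlap. The differences of this list lay between -0.27 and 0.22.

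**Figure D4:**
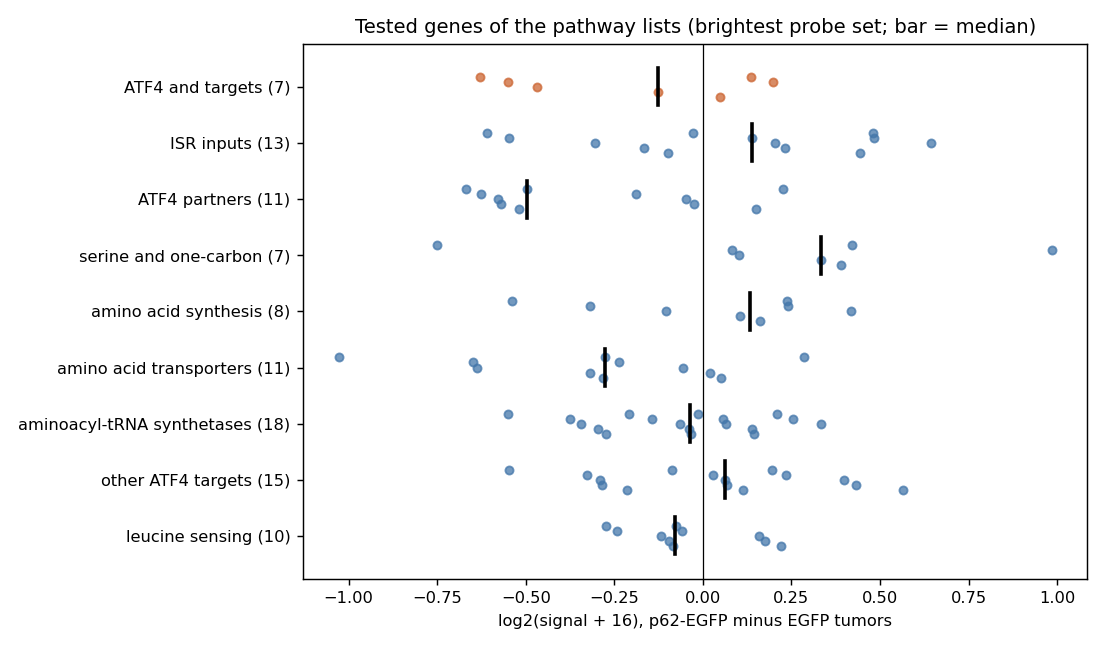
Log2 difference, p62-EGFP minus EGFP tumors (horizontal axis), of the tested genes of ATF4 and its targets (orange) and of 8 pathway lists (blue; ISR is the integrated stress response), each gene by its brightest probe set, with black bars at the list medians and the number of genes in brackets. The lists spread to both sides of 0, with medians from -0.50 for ATF4 partners to 0.33 for serine and one-carbon enzymes.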

How the data were processed

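The deposited table holds 1-colour signal intensities of 4 Affymetrix Mouse Genome 430A 2.0 arrays on a linear scale. Per the submitters' processing notes the authors used MAS5, with the version not given in the sources used here. They were used as deposited, because trimmed means (2% at each end) were equal. Gene names came from the platform annotation given with the table: of 22626 non-control probe sets 20380 had 1 symbol, 691 several and 1555 none, and 20351 of the first matched GRCm38.p6 gene identifiers, which gave the chromosomes. Values were transformed as log2(signal + 16), filtered at the 40th percentile of the mean, and fitted in R 4.3.3 by limma 3.58.1 (lmFit, then eBayes with a mean-variance trend). Tests were two-sided, and p-values were adjusted by Benjamini-Hochberg with a threshold of 0.05. The series names Genes@Work, which was not used here. The fit was tested on simulated data. Summaries and figures used Python 3.11.15, pandas 2.3.3 and matplotlib 3.10.9.

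The number of arrays limits the precision: the fit has 2 residual degrees of freedom, and for 1 probe set the smallest p of an exact two-sided permutation test is 0.333. A gene in a list is represented by its brightest probe set. Named are all members, the 4 genes of each list with the smallest p, the 5 nearest patterns and the brightest markers. The members and lists were chosen with earlier results of these data known. Epithelial, leukocyte and muscle markers are named as a check of the tumors. Kit, Tek, Vwf, Slc7a7, Cldn7 and the tested epithelial markers other than the brightest were named after their values were seen. Alternatives covered scaling, pseudocount, filter, variance model, replicate block, chromosome medians, averaging probe sets and leaving out each tumor.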

Additional observations from a re-analysis of the deposited data

How the results depend on the processing

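Over the alternatives run, no probe set of the ATF4 group was called in any setting that kept all 4 tumors. The share without overlap in those settings depended on the filter and scaling. It was 10 of 19 with no filter, 9 of 14 with quantile normalization, 8 of 12 with the 60th percentile filter and 11 of 14 with median centring. Among all tested probe sets, 26.7% were higher and 22.2% lower without overlap in the main fit. That share is not given for the alternatives, so nothing is concluded from these member counts. The median log2 difference of the member genes stayed negative, from -0.23 to -0.01 with 1 tumor left out. Leaving out 1 tumor gave 0 to 2 member calls, 0 to 18 pathway list calls and 0 to 2835 calls over all probe sets. The calls came without EGFP tumor 1 or 2, when the spread rests on the p62-EGFP pair alone. Without EGFP tumor 1, 13 member probe sets and 92 list genes were tested, and without EGFP tumor 2, 14 and 91. Those fits also called many probe sets outside the group, as given for Atf4, so nothing is concluded from the member and list calls. Over all probe sets 12 were called, 6 with no filter on low values and 7 with a filter at the 60th percentile. Differences of Phgdh probe sets changed sign with 1 tumor left out: 1437621_x_at ranged from -0.19 to 0.29, 1454714_x_at from -0.070 to 0.17 and 1456584_x_at from -0.017 to 0.28; the cause was not tested. With the replicate block 37 probe sets were called and 0 members and 0 pathway genes; same-numbered tumors correlated at 0.08 in their deviations, so the numbers were not taken as pairs. Smaller list medians also moved with the scaling or filter: with each array centred on its median the synthetases were 0.002, other targets 0.10 and leucine sensing -0.04, quantile normalization gave the synthetases -0.02, a pseudocount of 64 gave other targets 0.04, and the 60th percentile filter gave the inputs 0.06. Trib3, Chac1 and Slc7a11 were too dim for a test, and Sesn2 was close to the filter.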
